A study of Mus musculus with 14 samples.

Results

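The Fox, Sox, Pax, Lhx, Tbx and Gata genes encode 6 families of DNA-binding transcription factors, and meiotic DSB sites at their starts and in their bodies were examined with DMC1 ChIP-SSDS in mouse testes with and without HELLS. Members were the protein-coding genes of the GENCODE M21 annotation of GRCm38 whose symbol is Fox followed by a letter and a number, or Sox, Pax, Lhx, Tbx or Gata followed by a number. This gave 99 genes (44 Fox, 19 Sox, 13 Tbx, 9 Pax, 8 Lhx and 6 Gata) of 21755 protein-coding genes on the 19 autosomes and chromosome X. A gene was a member by its symbol and not by its own values, but the families were picked with earlier results of these data known.

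DMC1 is the strand-exchange protein that loads on DNA made single-stranded by resection of DSB ends, so that the DNA recovered with it marks where breaks were made. Hells CTRL mice carried a floxed and a deleted Hells allele (Hells fl/-). Hells cKO mice carried the same alleles together with Stra8-iCre, a Cre transgene under the promoter of Stra8, which is active in male germ cells as they approach meiosis. The chromatin came from whole testes, of 5-week-old Hells CTRL mice (2 testes per replicate) and 9-week-old Hells cKO mice (3 testes per replicate). Age therefore differed together with genotype, and their effects cannot be told apart. The study also states that some spermatocytes of Hells cKO mice still held HELLS. The mice of both genotypes carried the Dom2 allele of Prdm9.

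HELLS is a chromatin remodeler of the SNF2 family. In mice, PRDM9 is a histone methyltransferase that binds specific DNA sequences and directs DSBs to these sites, and where it is missing DSBs are known to form at other places rich in H3K4me3, such as promoters. Many genes of the Fox, Sox, Pax, Lhx, Tbx and Gata families are silent in most adult tissues, although their promoters are often rich in CpG dinucleotides, and such promoters are textbook targets of Polycomb repression in cells that do not use them. Other members are used in most cells or in the germ line itself.

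The 2 replicates of each genotype were merged by the authors into a single peak list, which held 11133 peaks for Hells CTRL and 17117 for Hells cKO. The strength of a peak is the authors' score, a fragment count corrected for background. The number of reads behind it is unknown, and strengths cannot be normalized between the genotypes, so each peak is also given by its percentile within its own list, the percent of peaks with a lower strength, with equal strengths split evenly. The median strength was 63 for Hells CTRL and 31 for Hells cKO. With 1 list per genotype there is no spread between replicates and no test between the genotypes. Shares carry exact (Clopper-Pearson) 95% intervals, written CI, which cover counting error only.

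Short sequences are shown first, as examples of the bases at peaks of each list. All sequences are from GRCm38 and are written on the plus strand, with the C and G of each CpG in capitals. For 5 of the families, a short window is shown from the strongest Hells cKO peak at a start, moved by up to 330 bp from the peak center to stay clear of annotated UTRs. They lie at chr6:128363118-128363218 (Foxm1), chr11:45980527-45980627 (Sox30), chr4:44704007-44704107 (Pax5), chr3:99254193-99254293 (Tbx15) and chr2:9890035-9890135 (Gata3). In the Gata family Gata6 had the stronger peak, and the sequence shown is that of the next member.
Foxm1: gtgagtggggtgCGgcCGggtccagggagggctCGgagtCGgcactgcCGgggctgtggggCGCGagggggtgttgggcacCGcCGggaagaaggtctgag
Sox30: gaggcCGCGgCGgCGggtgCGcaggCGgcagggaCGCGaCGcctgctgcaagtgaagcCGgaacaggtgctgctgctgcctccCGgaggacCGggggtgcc
Pax5: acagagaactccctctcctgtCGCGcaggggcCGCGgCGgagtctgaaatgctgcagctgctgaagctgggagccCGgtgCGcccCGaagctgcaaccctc
Tbx15: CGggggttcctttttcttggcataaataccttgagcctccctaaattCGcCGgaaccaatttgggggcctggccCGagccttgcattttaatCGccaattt
Gata3: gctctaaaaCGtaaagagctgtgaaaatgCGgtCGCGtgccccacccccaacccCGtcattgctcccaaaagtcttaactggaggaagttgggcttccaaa

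These windows held 5 to 12 CpG each, with 12 at Sox30 and 5 at Tbx15 and Gata3. The windows at the centers of the 4 strongest Hells CTRL peaks in different members follow, all of them in introns. They lie at chr7:115515082-115515182 (Sox6), chr6:98947512-98947612 (Foxp1), chr1:78175133-78175233 (Pax3) and chr6:14953798-14953898 (Foxp2).
Sox6: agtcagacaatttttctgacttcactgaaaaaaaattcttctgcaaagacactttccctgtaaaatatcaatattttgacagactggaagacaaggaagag
Foxp1: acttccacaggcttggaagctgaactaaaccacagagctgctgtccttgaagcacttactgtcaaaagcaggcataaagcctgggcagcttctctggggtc
Pax3: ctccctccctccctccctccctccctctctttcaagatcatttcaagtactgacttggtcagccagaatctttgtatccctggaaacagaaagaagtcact
Foxp2: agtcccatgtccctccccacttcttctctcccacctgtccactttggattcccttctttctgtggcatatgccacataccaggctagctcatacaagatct

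None of these 4 windows held a CpG. Some promoters rich in CpG had no Hells cKO peak. The last set shows promoters of members with many CpG and no Hells cKO peak at a start, chosen after the values were seen. They are at chr11:121259889-121259989 (Foxk2), chr16:18586970-18587070 (Tbx1) and chr2:152398064-152398164 (Sox12), and held 19, 23 and 19 CpG.
Foxk2: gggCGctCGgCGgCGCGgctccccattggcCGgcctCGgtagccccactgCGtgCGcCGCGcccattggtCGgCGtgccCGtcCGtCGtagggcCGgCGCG
Tbx1: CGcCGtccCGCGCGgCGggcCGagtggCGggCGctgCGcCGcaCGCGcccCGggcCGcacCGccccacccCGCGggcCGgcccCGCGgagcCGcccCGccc
Sox12: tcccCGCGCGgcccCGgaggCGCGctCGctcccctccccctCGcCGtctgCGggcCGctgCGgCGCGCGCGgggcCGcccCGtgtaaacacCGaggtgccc

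In Hells cKO, a peak was counted at a start when its center was within 1 kb of the start of any annotated transcript of the gene. By this rule 33 of the 99 members (33.3%, CI 24.2 to 43.5%) had a peak at a start, against 45.6% of all protein-coding genes. The members were not poor in CpG. Within 250 bp of the most CpG-rich start they had a median of 40 CpG (quartiles 29 and 55), against 32 in other protein-coding genes (quartiles 9 and 49). When the shares of the other genes were taken in classes of 10 CpG and weighted by the number of members in each class, 60.4% of genes of like CpG count had a Hells cKO peak at a start. The difference was -27.1 percentage points, and 60.4% lay above the interval of the members' share.

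By family, the share ran from 7.69% to 50%. Gata had a peak at 3 of 6 genes (50%, CI 11.8 to 88.2%), Fox at 17 of 44 (38.6%, CI 24.4 to 54.5%), Lhx at 3 of 8 (37.5%) and Sox at 7 of 19 (36.8%, CI 16.3 to 61.6%). Pax had 2 of 9 (22.2%, CI 2.81 to 60%). Tbx was lowest, with 1 of 13 (7.69%, CI 0.195 to 36.0%), where genes of like CpG count had 49.4%. The intervals of all 6 families overlap. In each family the share was below that of genes of like CpG count, and for Fox, Sox and Tbx the latter lay outside the interval.

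**Figure D1:**
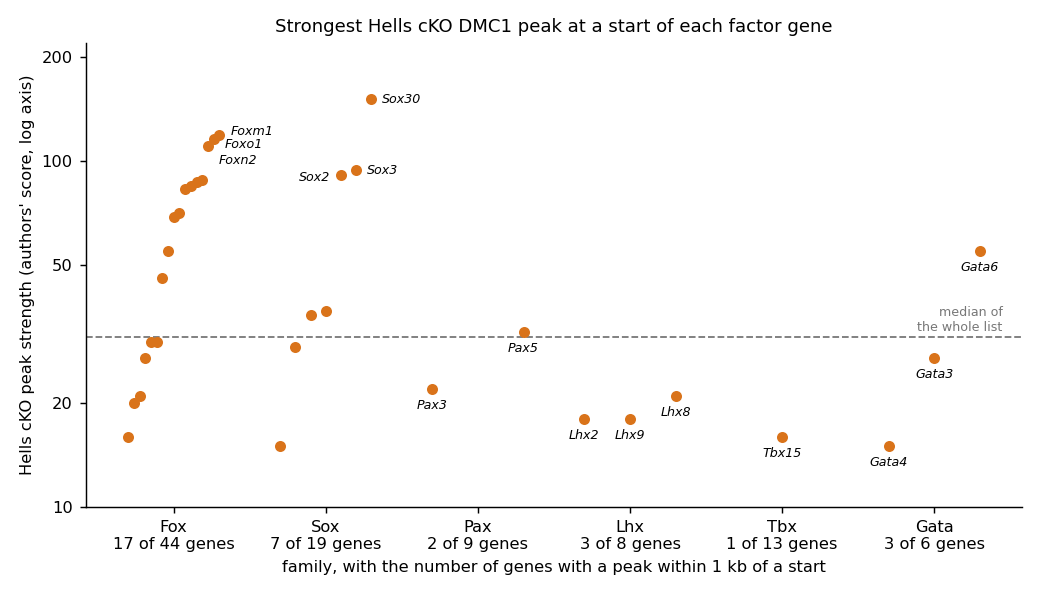
Strength of the strongest Hells cKO peak within 1 kb of a start (authors' score, log axis) for each of the 33 members with such a peak, by family; each point is a gene, the 3 strongest of each family are named, and the dashed line is the median of the whole list, 31. Fox and Sox genes reach 119 and 151, while all Lhx and Tbx points lie below the line.

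Among the members with a peak, the median strength at starts was 36 (CI of the median 27 to 71, range 15 to 151), at percentile 56.4 of the list. For other protein-coding genes of like CpG count, the medians of the CpG classes, averaged over the members with a peak, gave 52.2 (percentile 67.8). Of the 33 members, 18 were above percentile 50 and 1 was above percentile 90, whereas 6793 and 1763 of the 9892 other genes with a peak were.

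The strongest Hells cKO peak at a start was at Sox30, a gene of the male germ line that is needed for spermiogenesis. It spanned chr11:45979220-45981935, had a strength of 151 (percentile 93.7), and was centered 267 bp downstream of a start, in a coding exon. No other member passed percentile 90. Sox3, used in spermatogonia and in the pituitary, followed in its family with 94 (percentile 85.1), and Sox2, a pluripotency factor, with 91 (percentile 84.3). The other Sox genes with a peak were Sox17 (37), Sox6 (36), Sox7 (29) and Sox15 (15, percentile 16.9), so the family ran from near the bottom of the list to near its top.

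Fox, the family with the most genes, held 17 of the 33 members with a peak. The strongest peak was above percentile 50 at 11 of these 17, and at 5 of 7 in Sox. Foxm1, a driver of the cell cycle, had a peak of 119 (percentile 89.9) at chr6:128361788-128363889, centered 129 bp upstream of a start. The start of another gene, Rhno1, was also within 1 kb of that center. Foxo1, an effector of insulin signaling that spermatogonial stem cells need, had 116 (percentile 89.3), and Foxn2 had 111 (percentile 88.5). These were followed by Foxj3 (88), Foxo4 (87), Foxp3 (85), Foxb2 (83), Foxj2 (71) and Foxp1 (69). The weakest were Foxj1, a master gene of motile cilia, with 21, Foxi3, a gene of ectodermal placodes, with 20, and Foxr1 with 16 (percentile 19.8).

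Peaks in the remaining families were mostly weak. Among Pax genes, Pax5, which commits cells to the B lineage, had 32 (percentile 51.6) and Pax3, a gene of neural crest and muscle progenitors, had 22 (percentile 34.9). The Lhx genes were Lhx8, an oocyte factor, with 21 (percentile 32.5), and Lhx2 and Lhx9, of the forebrain and the early gonad, with 18 each (percentile 25.2). Tbx15 was the only T-box gene, with 16 (percentile 19.8). Among GATA factors, Gata6, of endoderm and heart, had 55 (percentile 71.6), Gata3, of T cells, had 27 (percentile 44.1), and Gata4, of heart and Sertoli cells, had 15 (percentile 16.9). Gata4 and Sox15 had the lowest strengths of all 33 members.

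The gap to other genes was not the same in each CpG class. Among members with 30 to 39 CpG, 5 of 23 had a Hells cKO peak at a start (21.7%, CI 7.46 to 43.7%), against 66.6% of other genes. With 40 to 49 CpG, 6 of 22 had one (27.3%, CI 10.7 to 50.2%), against 72.1%. In these classes, which held the most members, the shares of other genes were above the members' intervals. With 60 to 69 CpG the shares were close, with 11 of 15 members (73.3%, CI 44.9 to 92.2%) against 74.7%. In the classes from 70 CpG, 2 of 5 members had a peak with 70 to 79 and 0 of 2 with 80 or more, against 73.5% and 79.1% of other genes. In the class of 20 to 29 CpG the members' share was the higher, 5 of 9 (55.6%) against 50.1%, well within its interval. Taken from 30 CpG upward, 27 of 74 members had a peak (36.5%, CI 25.6 to 48.5%), where genes of like CpG count had 71.4%.

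**Figure D2:**
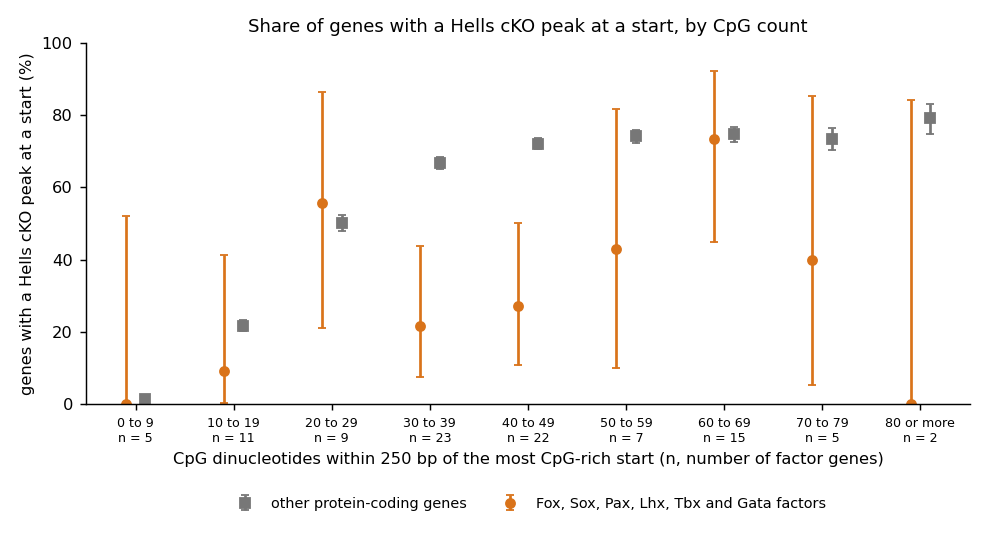
Percent of genes with a Hells cKO peak within 1 kb of a start, by CpG count in the 250 bp to either side of the most CpG-rich start; circles are the 99 Fox, Sox, Pax, Lhx, Tbx and Gata genes, squares the other protein-coding genes, and bars exact 95% CI. The circles lie far below the squares at 30 to 39 and 40 to 49 CpG (21.7% against 66.6% and 27.3% against 72.1%) and beside them at 60 to 69 CpG.

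The members with the most CpG and no Hells cKO peak at a start were Foxk2 (103 CpG), a broadly expressed forkhead gene, Tbx1 (86), needed for the pharyngeal arches, Sox12 (77), Foxp4 (71) and Tbx18 (71), of the epicardium. Foxk2 was also far from any Hells cKO peak, with the nearest center 635366 bp from a start. The nearest centers were 411027 bp away for Tbx18, 135022 bp for Foxp4, 35690 bp for Tbx1 and 7868 bp for Sox12.

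Members were also grouped by where they are known to act, from textbook roles. The 5 genes with roles in germ cells all had a Hells cKO peak at a start (CI 47.8 to 100%, genes of like CpG count 74.1%). Their strengths were 151 at Sox30, 116 at Foxo1, 94 at Sox3, 30 at Foxo3 and 21 at Lhx8. The low values were those of Foxo3, which is also in the list of broadly expressed factors, and Lhx8. Of the 15 broadly expressed factors, 9 had a peak (60%, CI 32.3 to 83.7%, like CpG 72.3%), with a median strength of 87 (CI 55 to 116). These were Foxm1, Foxo1, Foxn2, Foxj3, Foxo4, Foxj2, Foxp1, Foxn3 (55) and Foxo3. No peak was found at the starts of Foxk1, Foxk2, Foxp4, Sox4, Sox12 and Sox13.

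In the list of brain, eye and spinal cord factors, 3 of 13 genes had a peak (23.1%, CI 5.04 to 53.8%), and genes of like CpG count had 68.0%. They were Sox2 (91), Foxd1 (27) and Lhx2 (18). Among those without a peak at a start were Foxb1, Sox1, Sox11, Pax2, Pax6, Lhx1 and Lhx3. Of the heart and foregut endoderm factors, 4 of 9 had a peak (44.4%, like CpG 66.0%), which were Gata6 (55), Sox17 (37), Foxa1 (30) and Gata4 (15), and Foxa2, Foxa3, Tbx1, Tbx5 and Tbx20 had none. Of the blood and lymphoid factors, 3 of 7 had a peak (42.9%, like CpG 54.9%), which were Foxp3, Pax5 and Gata3, and Gata1, Gata2, Foxn1 and Tbx21 had none. The strongest peaks at the Foxp3 and Gata3 starts also had a start of another coding gene within 1 kb of their centers.

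The testis holds somatic cells beside germ cells, and some members act there. In the list of somatic cells of the gonad, 3 of 7 genes had a peak (42.9%, CI 9.90 to 81.6%, like CpG 60.5%). They were Gata6, Lhx9 and Gata4, with a median strength of 18, and Sox8, Sox9, Foxl2 and Gata1 had none at a start. Outside the germ cell and broadly expressed lists, 21 of 81 members had a peak (25.9%, CI 16.8 to 36.9%), against 57.7% for genes of like CpG count. Their median strength was 27 (CI 18 to 37), where the averaged class medians of other genes gave 46.1. Inside the germ cell and broadly expressed lists, 12 of 18 members had a peak (66.7%, CI 41.0 to 86.7%), against 72.5%. Their median strength was 87.5 (CI 55 to 116), where the averaged class medians gave 62.7. Expression was not measured in these libraries, and its part in the difference was not tested.

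**Figure D3:**
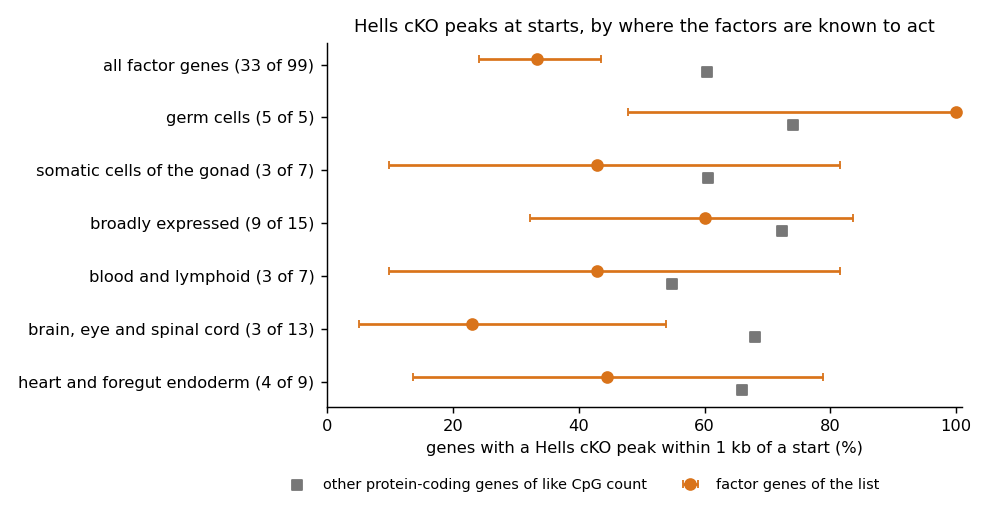
Percent of members with a Hells cKO peak within 1 kb of a start, for all 99 genes and for the lists of known roles (circles, with exact 95% CI; a gene may be in more than 1 list), beside other protein-coding genes of like CpG count (squares). The germ cell genes (5 of 5) lie to the right of their square, and the brain, eye and spinal cord factors (3 of 13) lie farthest to the left of theirs.

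As a further comparison, 103 genes of the Hox, Dlx, Irx, Msx, Otx, Emx, Pitx, Zic, Klf, Nkx and sine oculis homeobox families were counted in the same way. Of these developmental factors, 23 had a Hells cKO peak at a start (22.3%, CI 14.7 to 31.6%), against 62.8% for genes of like CpG count, and their median strength was 38. The low share was therefore not particular to the Fox, Sox, Pax, Lhx, Tbx and Gata genes.

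The sex chromosomes are condensed and largely unpaired in male meiosis, and 6 members are on chromosome X. Of these, Sox3 (94), Foxo4 (87) and Foxp3 (85), the master gene of regulatory T cells, had a Hells cKO peak at a start. Foxr2, Gata1 and Tbx22 had none, and these 3 had 6 to 14 CpG at their most CpG-rich start. Starts of Ppp1r3f and Flicr were within 1 kb of the center of the Foxp3 peak in Hells cKO, so that peak cannot be assigned to Foxp3 alone. Among other genes of chromosome X with 30 or more CpG, 252 of 289 had a peak (87.2%, CI 82.8 to 90.8%), with a median strength of 74.5. On the autosomes, 30 of 93 members had a peak (32.3%, CI 22.9 to 42.7%) and the median strength was 31.

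Peaks of the members were centered somewhat farther from the start than those of all other genes with a peak, which were not matched by CpG count. The 33 genes had 38 peaks at starts, with 3 at Foxp1 and 2 each at Foxj2, Foxn3 and Gata3. The nearest peak was centered a median of 243 bp from a start (quartiles 117 and 483), against 150 bp in other genes (quartiles 60 and 287). It was within 500 bp at 25 of 33 members (75.8%) and at 92.4% of other genes with a peak. A start of another gene was within 1 kb of the center at 8 of 33 members (24.2%) and at 34.9% of other genes. No intervals were computed for these shares, and the members are few. Of the 38 peaks, 13 were centered in UTRs, 10 in introns, 7 in coding exons, 7 upstream and 1 in a noncoding exon. Just inside the limit of 1 kb were Foxd4 (907 bp) and Foxd1 (871 bp), and just outside it were Lhx4 (1090 bp), Foxa3 (1132 bp) and Foxd3 (1149 bp).

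With distance, the gap to other genes in percentage points first widened and then narrowed. Within 0.1 kb of a start, 11.1% of members had a Hells cKO peak, against 23.3% of genes of like CpG count. Within 0.5 kb it was 26.3% against 56.5% of genes of like CpG count, within 5 kb 48.5% (CI 38.3 to 58.7%) against 64.0%, and within 10 kb 54.5% against 67.8%. The difference thus went from -12.2 percentage points at 0.1 kb to -30.2 at 0.5 kb, and from there to -13.3 at 10 kb and -8.21 at 100 kb. Among genes with 30 or more CpG and no peak at a start, 10 of 47 members (21.3%) had a Hells cKO peak within 5 kb, against 9.81% of 3221 other genes.

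**Figure D4:**
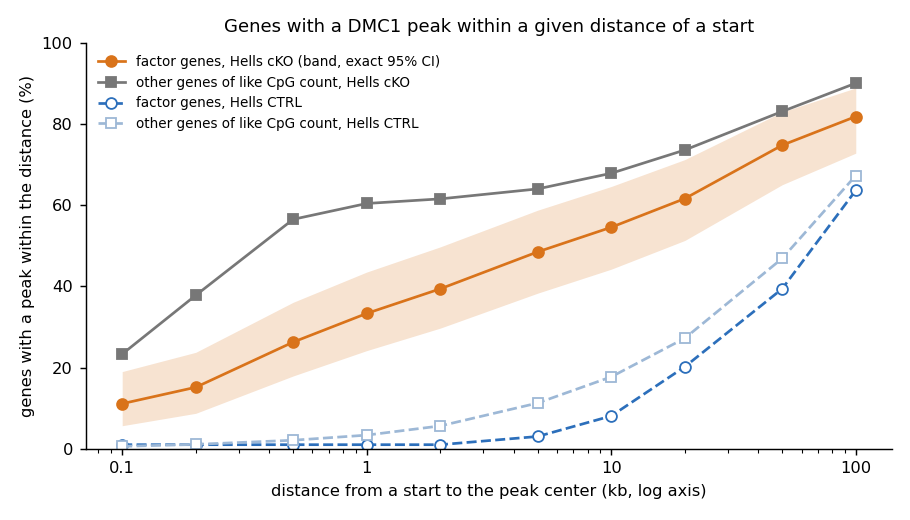
Percent of genes with a DMC1 peak centered within a given distance of a start (kb, log axis), in Hells cKO (filled) and Hells CTRL (open), for the 99 members and for other protein-coding genes of like CpG count; the band is the exact 95% CI of the members in Hells cKO. The Hells cKO lines are farthest apart at 0.5 kb (26.3% against 56.5%) and approach each other with distance.

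In Hells CTRL, a peak at a start was found at 1 member, Foxp3 (1.01%, CI 0.0256 to 5.50%), against 2.7% of all protein-coding genes and 3.37% of genes of like CpG count. The Foxp3 peak was at chrX:7572558-7574589, was centered 71 bp upstream of a start and had a strength of 28 (percentile 19.2). Starts of Ppp1r3f and Flicr were also within 1 kb of its center, so it cannot be assigned to Foxp3 alone. The Hells CTRL share of the members stayed at 1.01% up to 2 kb from the start, and reached 8.08% within 10 kb, against 17.7% of genes of like CpG count.

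Gene bodies gave another picture. A peak was counted in the body when its center was inside the gene and over 1 kb from each of its starts. In Hells cKO, 23 members (23.2%, CI 15.3 to 32.8%) had 29 such peaks, against 10.3% of all protein-coding genes and 8.80% of genes with bodies of like length. Per Mb of body there were 5.89 peaks in members and 3.18 in other genes, not matched for length. The rate was higher in members in each class of body length under 200 kb, with 66.9 against 6.69 for bodies under 5 kb. With bodies of 200 kb or more it was lower, 1.69 in members and 2.70 in other genes. The Hox and other comparison families were also above genes of like length, with 13 of 103 genes (12.6%, CI 6.89 to 20.6%) against 4.07% and 11.3 peaks per Mb, so a higher share was not particular to the members. Of the 29 peaks, 17 were centered in introns, 9 in coding exons and 3 in UTRs. A peak in the body stood beside a peak at a start in 9 members and alone in 14. Of all 21755 protein-coding genes, 9925 had a Hells cKO peak at a start, 2249 in the body and 10915 in either place. The members' share at starts was itself lower, so these counts are not read as a trait of the members.

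The members' share was furthest above that of other genes, as a ratio, at short genes. Of the members with a body under 5 kb, 7 of 41 (17.1%) had a Hells cKO peak in it, against 1.57% of other genes. With bodies of 20 to 50 kb the shares were 5 of 14 (35.7%) and 10.4%, and with 200 kb or more 3 of 5 (60%) and 56.0%. The short genes with a peak included Sox21 (strength 79), Foxd3 (57), a neural crest gene, Foxc1 (51), Foxa1 (45), a pioneer factor, Sox4 (37) and Sox9 (23), the gene of Sertoli cells and cartilage. Many genes of these families keep their coding sequence in a single CpG-rich exon, and the 7 peaks had 18 to 77 CpG within 250 bp of their centers, most at Sox21 and fewest at Sox4. For bodies of at least 500 bp and under 5 kb, members had a median of 37.3 CpG per kb and other genes 11.3. With 25 or more CpG per kb, 7 of 25 members (28%, CI 12.1 to 49.4%) and 42 of 495 other genes (8.48%) had a peak. Within this class the median was 49.0 CpG per kb in members and 33.3 in other genes, so the density was not matched. With fewer than 25 CpG per kb, 0 of 13 members and 40 of 4144 other genes (0.965%) had a peak. Of all 29 peaks, 8 were within 3 kb of a start, among them those of Foxd3, Sox21, Sox4, Sox9 and Lhx4, and so followed closely on the limit that separates start from body.

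The strongest Hells cKO peaks in bodies were at Foxn2 (192, percentile 96.6) and Sox30 (124, percentile 90.6), both in coding exons. At Foxn2 the peak lay at chr17:88485767-88487580, 45898 bp from the nearest start, and was stronger than the peak of 111 at the start. Sox30 had its body peak 11757 bp from a start, with 124 against 151 at the start. The members with most peaks in the body were Sox5 with 3 (52, 22 and 19), and Pax3 (37 and 13), Pax9 (52 and 32), Lhx2 (33 and 25) and Lhx4 (36 and 16) with 2 each. Of these 5, Pax3 and Lhx2 also had a peak at a start.

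In Hells CTRL, 11 members (11.1%, CI 5.68 to 19%) had 26 peaks in the body, against 16.4% of all protein-coding genes and 13.5% of genes with bodies of like length. Per Mb there were 5.28 peaks in members and 5.52 in other genes. Of the 26 peaks, 24 were in introns, with a median of 6 CpG within 250 bp of the center, against 19 for the 29 Hells cKO body peaks. The lists differ in the genes they cover. Among members with bodies under 5 kb, 7 had a Hells cKO body peak and 1 a Hells CTRL body peak. Genotype and gene structure therefore cannot be told apart here, and these values were not computed for body peaks of other genes. The median strength of the 26 Hells CTRL peaks was 40 (percentile 33.0), against 67 in other genes.

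Long genes held most of them. All 5 members with bodies of 200 kb or more had a Hells CTRL peak (83.0% of other such genes did). Sox6, which acts with Sox5 in cartilage, had peaks of 321 (percentile 89.3) and 43. Foxp1, in the broadly expressed list and known from lymphocytes, heart and brain, had 5 peaks, of 319 (percentile 89.2), 95, 85, 37 and 22. Foxp2, known for its part in speech and vocal learning, had 232 (percentile 83.4), 227, 73 and 30. Sox5 had 112 (percentile 66.8), 35 and 24, and Foxn3 had 103 (percentile 64.5), 37, 21 and 20. The strongest peaks of Sox6, Foxp1 and Foxp2 were thus above percentile 80, and no peak of Sox5 or Foxn3 was.

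Among the shorter genes, Pax3 had peaks of 308 (percentile 88.7) and 148 (percentile 73.5), both in introns. Lhx4, a gene of the pituitary and of motor neurons, had 100 (percentile 63.7) in a UTR. The others were weak, with 33 at Foxn2, 30 at Pax4, a gene of the endocrine pancreas, 30 and 28 at Foxo1 and 29 at Gata4. Pax4 was the only gene with a body under 5 kb. Of the 11 genes, 7 also had Hells cKO peaks in the body and 4 (Foxp2, Sox5, Lhx4 and Pax4) had none at a start in Hells cKO. Over all protein-coding genes, 10.3% had a Hells cKO peak in the body and 45.6% at a start. The 11 genes are mostly long, and 56.0% of other genes with bodies of 200 kb or more had a Hells cKO body peak. The overlap was not counted in other genes, so it is not read as a trait of the members.

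**Figure D5:**
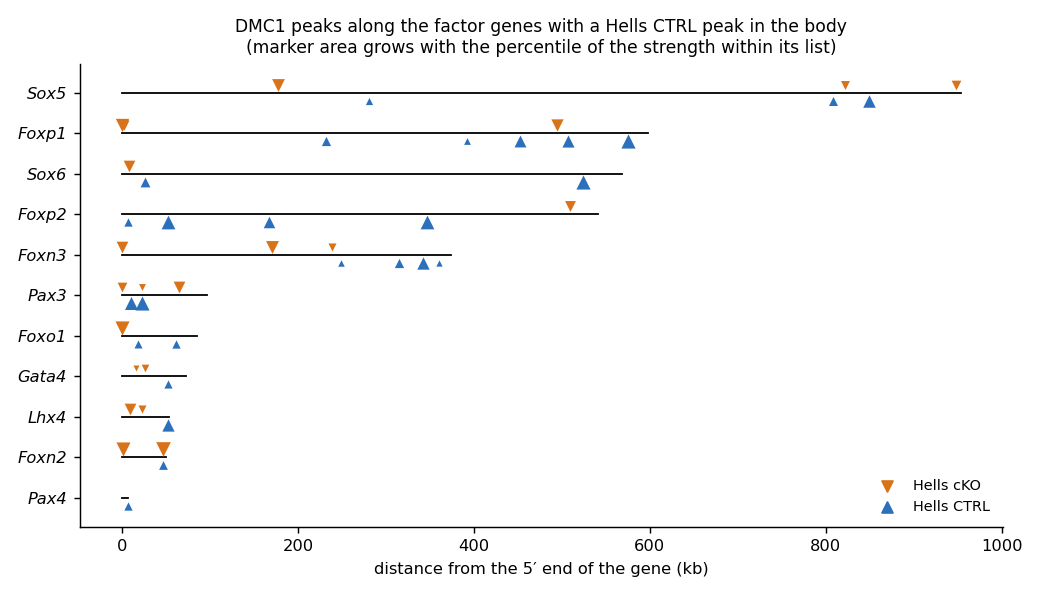
DMC1 peaks along the 11 members with a Hells CTRL peak in the body, by distance from the 5′ end of the gene (kb); upward triangles are Hells CTRL peaks, downward triangles Hells cKO peaks, lines the length of the gene, and marker area grows with the percentile within its own list. Hells CTRL peaks are spread along the genes, and Foxp1, Foxn3, Pax3, Foxo1 and Foxn2 have Hells cKO peaks at their 5′ ends.

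A peak was taken as common to the genotypes when stretches reaching 200 bp to either side of the centers shared at least a base. This was the case for 3 peaks of the members, which are 11.1% of their 27 Hells CTRL peaks (CI 2.35 to 29.2%) and 4.48% of their 67 Hells cKO peaks (CI 0.933 to 12.5%). In the whole lists 10.1% and 6.60% of peaks were common, inside these intervals. At the Foxp3 start, Hells CTRL had a strength of 28 (percentile 19.2) and Hells cKO of 85 (percentile 82.9). In the Foxn2 coding exon the strengths in the same order were 33 (percentile 25.9) and 192 (percentile 96.6). In the Pax3 intron they were 308 (percentile 88.7) and 13 (percentile 10.9). By rank within its list, the site was therefore higher in Hells cKO at Foxp3 and Foxn2 and higher in Hells CTRL at Pax3.

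Words of 8 bases enriched at the centers of Hells CTRL peaks were counted at the members as a description of their sequence. The 20 words were taken from Hells CTRL-specific peaks outside the members, and the most enriched was GATGCTAC, at 388 centers against 36 windows 1 kb away. On either strand and within 100 bp of the center, a word was present at 6 of the 26 Hells CTRL body peaks of members (23.1%, CI 8.97 to 43.6%), at 36.8% of Hells CTRL peaks outside members, and at 8.21% of windows 1 kb from those. The words were chosen largely on these same outside peaks and windows, so the gap between the latter shares follows in part from the choice. The 6 peaks were at Foxp2 (232 and 227), Gata4, Lhx4, Pax4 and Sox5 (112), and those of Sox6, Foxp1 and Pax3 had no such word. The share was about the same at the Hells cKO body peaks of members, 7 of 29 (24.1%, CI 10.3 to 43.5%). Of the 38 Hells cKO peaks at starts of members, 3 held a word (7.89%, CI 1.66 to 21.4%), and of all Hells cKO peaks 13.5% did.

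Across both lists, 47 members (47.5%, CI 37.3 to 57.8%) had a Hells cKO peak at a start or in the body, against 50.2% of all protein-coding genes, and 52 had none, against 49.8%. In 51 members (51.5%, CI 41.3 to 61.7%) there was no peak of either genotype, against 45.4% of all protein-coding genes, a share inside the members' interval. The 51 were 21 Fox, 10 Tbx, 8 Sox, 5 Pax, 4 Lhx and 3 Gata genes.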

How the data were processed

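DMC1 ChIP-SSDS had been done on testes, in 2 replicates for Hells CTRL and 2 for Hells cKO. The authors trimmed reads to 50 bp, required a Phred score over 28, mapped to GRCm38/mm10, retained unique and non-duplicated reads, and called peaks with MACS2 at a relaxed threshold. The Irreproducible Discovery Rate, computed between the true replicates and between pseudo-replicates, set how many of the top-ranked peaks called on pooled reads entered the final list. The value deposited by the authors for each peak is a score, its strength, counting fragments at the re-centered peak and correcting for local background and, by the methods, for library size. All are whole numbers. The other 10 libraries of the series (5hMeDIP and input) were not analysed here.

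Peak centers were the midpoints of the deposited intervals. Genes, starts and features were those of GENCODE M21, and sequence was read from GRCm38.p6. Centers within 1 kb of any start counted as at the start, and those inside the gene beyond 1 kb of each start as in the body. CpG were counted within 250 bp of the start with the most, in classes of 10, the last from 80 upward. Shares of other genes in these classes, or in classes of body length, were averaged with the members' numbers as weights. For strengths and percentiles at starts, the medians of other genes with a peak in each CpG class were averaged over the members with a peak. Common peaks had centers whose 200 bp flanks overlapped. Words of 8 bases were the 20 with the largest ratio of centers (within 100 bp) to windows 1 kb away, among those at 100 or more centers of Hells CTRL-specific peaks at least 10 kb from members.

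Members, role lists and comparison families were chosen with earlier results of these data known. Named genes were, per family, the 3 with the strongest Hells cKO peak at a start, members with a Hells CTRL peak at a start or a common peak, the 10 strongest Hells CTRL peaks in bodies, the 3 weakest Hells cKO peaks at starts, the 5 members without one that have the most CpG, the 5 with most Hells cKO body peaks, members on chromosome X and the role lists. Other genes were named after their values were seen, and some items that the rule names are not reported here. In simulated data on 21755 genes, 100% of 200 peaks planted within reach of a start were found, and 0% of 200 planted just beyond it. This outcome follows from the rule, so it checks only that the rule was applied as stated, not the detection of peaks. In a separate simulation of 20000 genes with known class rates, the class-weighted share was off by 0.434 percentage points. Scripts ran in Python 3.11.15 with scipy 1.17.1, numpy 2.4.6 and pandas 2.3.3, and figures were drawn with matplotlib 3.10.9.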

Additional observations from a re-analysis of the deposited data

How the results depend on the processing

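No paired analysis was possible because the replicates were merged into 1 list per genotype. The share of members with a Hells cKO peak at a start stayed inside its interval under 6 of 7 alternatives and was 18.2% when only peaks at or above the median strength were used. That setting also gave 15 members with a Hells cKO peak in the body, 7 with a Hells CTRL peak in the body, and 0 with a Hells CTRL peak at a start. The last was also 0 on the autosomes alone, since Foxp3 is on chromosome X. The difference from genes of like CpG count was negative under all 17 alternatives, 15 of them inside its interval, and was -15.5 percentage points with a reach of 5 kb and -13.3 with 10 kb. These reaches, the classes split by a start of another gene nearby and the members outside the germ cell and broadly expressed lists (-31.8) were chosen after seeing the data. The median strength at starts and the 3 common peaks moved under none of the 5 and 2 alternatives run. For the strength, division by the list median and the percentile within the list only rescale the values. These settings could not have moved it, so only the nearest peak, the 500 bp reach and the autosomes were informative. The unknown number of reads behind each strength limits all statements on weak peaks, and a gene without a peak may still hold signal below the authors' threshold.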

Other observations

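The germ cell and broadly expressed lists were rich in CpG, and the count by both was made after the values were seen. Of their 18 members, 14 had 60 or more CpG, and 10 of these had a Hells cKO peak at a start (71.4%, CI 41.9 to 91.6%): Foxj2, Foxj3, Foxm1, Foxn2, Foxn3, Foxo1, Foxo3, Foxp1, Lhx8 and Sox30. Of the 81 other members, 8 had 60 or more CpG, and 3 of these had a peak (37.5%, CI 8.52 to 75.5%), which were Foxa1, Lhx2 and Sox2. With 30 to 59 CpG, 12 of 49 of them had a peak (24.5%, CI 13.3 to 38.9%). The close shares of members and other genes at 60 to 69 CpG in the report therefore rest on a class in which these lists are common, and role and CpG count cannot be told apart with the few genes outside the lists.

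Members with 1 annotated start had a Hells cKO peak at a start in 10 of 40 genes (25%, CI 12.7 to 41.2%, like CpG 58.1%), and those with 2 or more in 23 of 59 (39.0%, CI 26.5 to 52.6%, like CpG 62.0%). Members with a start of another gene within 1 kb had one in 12 of 32 genes (37.5%) and those without in 21 of 67 (31.3%), with 64.1% and 58.7% for genes of like CpG count.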
